A study of Homo sapiens with 6 samples.

Results

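IL13RA2, IL13RA1, IL4R and IL2RG encode the 4 receptor chains through which cells bind interleukin-4 and interleukin-13, and all 4 were found by symbol among the 6641 genes of the deposited expression table. They were chosen by name with their values in the comparison of HCC827_Er with HCC827 already known, so their levels are a description here and carry no test. HCC827 is an established lung adenocarcinoma line whose EGFR gene, for the epidermal growth factor receptor, carries an activating mutation. HCC827_Er is the line that the series title calls resistant, and the study's design text speaks of resistance to EGFR kinase inhibitors and of histone crotonylation. RNA of 3 libraries of each line was sequenced, with no treatment, dose or passage given in the labels, and whether HCC827_Er is a clone or a mixed population is not stated. Separate cultures are not stated for the 3 libraries, so the p-values of pathway genes below measure only the spread between these samples, which may be technical.

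IL4R is the chain that binds interleukin-4. Paired with IL2RG, the common gamma chain of lymphocyte cytokine receptors, it forms the type I receptor, and paired with IL13RA1 it forms the type II receptor, which responds to both cytokines and is the usual form in epithelium. The chains carry Janus kinases, JAK1 on IL4R, JAK3 on IL2RG and TYK2 on IL13RA1, which activate the transcription factor STAT6. IL13RA2 binds interleukin-13 alone with high affinity, has a short cytoplasmic tail, is best known as a decoy, and is expressed in several tumour types. In airway epithelium these receptors are known for driving mucous secretion and allergic inflammation.

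The table gives FPKM, which corrects the fragments of a gene for its length and for the size of the library, and no counts, so the depth of the libraries is unknown and a low value has no counting error attached. Its FPKM summed to between 184633 and 224211 per library, and libraries of one line correlated across genes with r between 0.991 and 0.994 on the log2(FPKM + 1) scale, against 0.806 to 0.809 between lines. Tested were the 5276 listed genes that reached an FPKM of 1 in 3 or more libraries. For 97.1% of them the lines did not overlap. All 4 chains passed this minimum of 1 FPKM. A gene under it in every library of 1 line passed only through the other line, which fixed its direction. IL13RA2 was such a gene. Of the tested genes 51.4% were higher in HCC827_Er, yet the median log2(FPKM + 1) difference was 0.43, so few differences lay just above 0. How the listed genes were selected is not given, nor whether they were chosen for a difference between the lines. Shares, ranks and rescalings here therefore hold for the listed genes, not for all genes. A gene was called at a limma adjusted p under 0.05 with an absolute log2(FPKM + 1) difference of at least 1, which is 2-fold, and 44.4% of the tested genes were called, 24.7% higher and 19.7% lower in HCC827_Er. Of the epithelial and lung adenocarcinoma markers, 10 of 12 were in the table and 9 of the 10 were called higher in HCC827_Er. The largest differences were those of SFTPB, a surfactant protein gene at 0.05, 0 and 0.59 FPKM in the HCC827 libraries against 39.6 ± 4.88 FPKM (SD, n = 3) in those of HCC827_Er, and of the epithelial splicing regulator gene ESRP1, at 3.27 ± 0.233 and 87.6 ± 3.83 FPKM. NKX2-1 stood at 5.93 ± 0.898 and 65.7 ± 4.65 FPKM and EPCAM at 30.1 ± 0.429 and 297 ± 26.4 FPKM. KRT8, a keratin gene and the 1 marker not called, was lower in HCC827_Er, at 1744 ± 45.9 and 1025 ± 31.7 FPKM. SFTPB was thus near 0 in HCC827, while the other 9 markers exceeded 3 FPKM in each library of both lines.

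IL13RA2 showed the widest separation of the 4 chains. IL13RA2 (ENSG00000123496; chrX:115003975-115019977, minus strand, a protein-coding gene with 3 transcripts in GENCODE 29 on GRCh38) stood at 57.86, 65.18 and 65.28 FPKM in the HCC827 libraries. It was listed at 0 in each of the 3 HCC827_Er libraries. The HCC827 libraries were close to each other, at 62.8 ± 4.26 FPKM (SD, n = 3), a level above 91.4% of the listed genes in that line. No fold is given against a line listed at 0, and the log2(FPKM + 1) difference of -5.99 (SE 0.098) depends on the pseudocount, at -9.29 with 0.1 and -3.76 with 5. It was larger in size than the difference of 99.8% of the tested genes.

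IL13RA1, the signalling chain for interleukin-13, was higher in HCC827_Er. IL13RA1 (ENSG00000131724; chrX:118727572-118794539, plus strand, protein-coding, 3 transcripts) stood at 27.18, 27.29 and 29.22 FPKM in HCC827. In HCC827_Er it stood at 43.62, 51.39 and 54.66 FPKM. Every HCC827_Er library lay above every HCC827 library, although the HCC827_Er libraries spread more widely. The means were 27.9 ± 1.15 and 49.9 ± 5.67 FPKM (SD, n = 3), a ratio of 1.79, and the log2(FPKM + 1) difference was 0.81 (SE 0.089).

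IL4R, the chain shared by both receptor types, was higher in HCC827_Er by a similar amount. IL4R (ENSG00000077238; chr16:27313668-27364778, plus strand, protein-coding, 19 transcripts) stood at 32.64, 26.82 and 34.16 FPKM in HCC827. In HCC827_Er it stood at 52.40, 53.33 and 48.11 FPKM, again with no overlap between the lines. The means were 31.2 ± 3.87 and 51.3 ± 2.78 FPKM (SD, n = 3), a ratio of 1.64, and the log2(FPKM + 1) difference was 0.70 (SE 0.095). Both differences lay under the 2-fold minimum, as did those of 55.6% of the tested genes. Their size depended on the scaling of the libraries: rescaling by the median of gene ratios moved HCC827_Er against HCC827 by -0.34 on the log2 scale and gave 0.48 for IL13RA1 and 0.37 for IL4R. Rescaling to equal sums moved it by 0.25 and gave 1.05 and 0.95. Both chains remained higher in HCC827_Er, and the lines of all 4 chains remained without overlap, with either rescaling.

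IL2RG, which completes the type I receptor, was the lowest chain in HCC827 and lower still in HCC827_Er. IL2RG (ENSG00000147168; chrX:71107404-71112108, minus strand, protein-coding, 9 transcripts) stood at 2.96, 2.86 and 2.89 FPKM in HCC827. In HCC827_Er it stood at 1.33, 1.57 and 0.69 FPKM, so the lines did not overlap, and 1 of the HCC827_Er libraries lay apart from the other 2. The means were 2.90 ± 0.0513 and 1.20 ± 0.455 FPKM (SD, n = 3), 2.43-fold lower in HCC827_Er on the FPKM scale. The log2(FPKM + 1) difference was -0.85 (SE 0.16), and at this level it followed the pseudocount, at -1.28 with 0.1 and -0.35 with 5. The IL2RG level lay above 44.6% of the listed genes in HCC827 and above 27.99% in HCC827_Er.

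**Figure D1:**
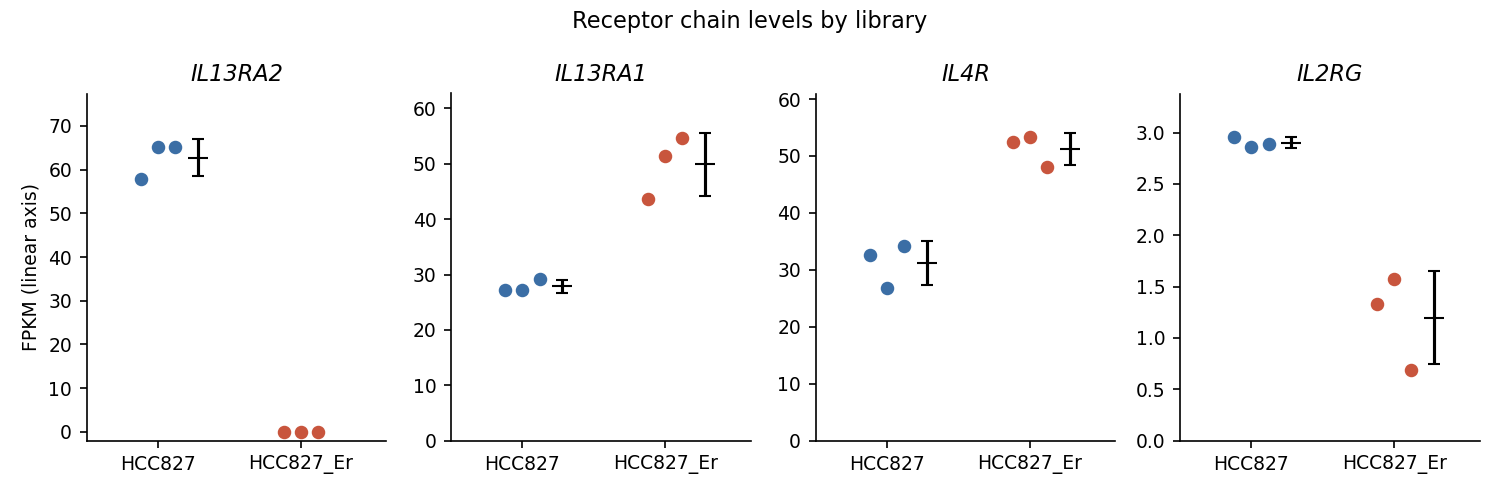
FPKM of IL13RA2, IL13RA1, IL4R and IL2RG on linear axes in the 3 HCC827 libraries (blue) and the 3 HCC827_Er libraries (red), 1 point per library, with the mean and SD of each line in black where the gene was not listed at 0. IL13RA2 goes from 62.8 FPKM to 0, IL13RA1 and IL4R are higher in every HCC827_Er library, and IL2RG is lower in every one.

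The order of the chains by FPKM, which is scaled by transcript length, differed between the lines. In HCC827 the order was IL13RA2, IL4R, IL13RA1 and IL2RG. The libraries of IL4R (26.82 to 34.16 FPKM) and IL13RA1 (27.18 to 29.22 FPKM) overlapped, so these neighbours did not differ beyond their spread, while IL13RA2 and IL2RG stood apart on either side. In HCC827_Er the order was IL4R, IL13RA1, IL2RG and IL13RA2. IL4R and IL13RA1 overlapped again, and IL2RG stayed far below them.

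Ratios of FPKM within a library do not depend on how the libraries are scaled against each other. IL13RA1 stood at 0.833, 1.02 and 0.855 times the FPKM of IL4R in the HCC827 libraries and at 0.832, 0.964 and 1.14 times in the HCC827_Er libraries. The means of 0.902 ± 0.101 and 0.977 ± 0.152 (SD, n = 3) lay within each other's spread, so the proportion of the chains of the type II receptor did not separate the lines. IL2RG stood at 0.0940 ± 0.0114 of the FPKM of IL4R in HCC827 and at 0.0231 ± 0.00781 in HCC827_Er (SD, n = 3), with no overlap between the lines. IL13RA2 stood at 2.13, 2.39 and 2.23 times the FPKM of IL13RA1 in HCC827 and at 0 in every HCC827_Er library. Transcript proportions do not give the proportions of receptor proteins at the cell surface.

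**Figure D2:**
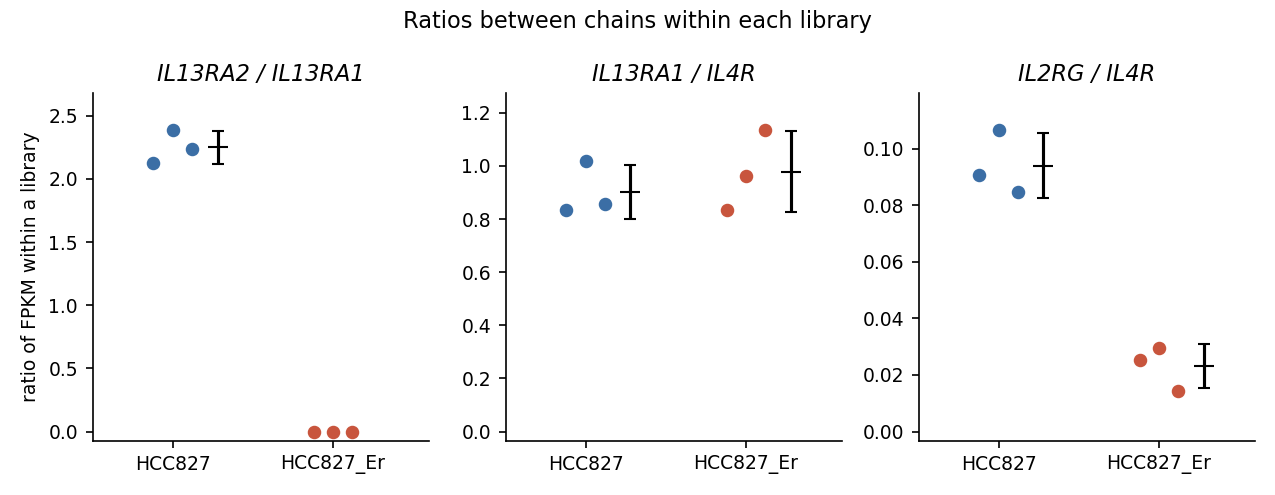
Ratios of FPKM between chains within each library, 1 point per library, with the mean and SD of each line in black where the ratio was above 0; axes are linear and start just below 0. IL13RA1 to IL4R overlaps between the lines (means 0.902 and 0.977), while IL2RG to IL4R and IL13RA2 to IL13RA1 separate them.

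The regions before the start of IL13RA1 and IL4R, both higher in HCC827_Er, are shown with that of IL2RG, which was lower. A link between these sequences and the levels of the genes was not tested. The sequences are from RefSeq on GRCh38.p14, which matched 3 of the 4 chains by symbol, IL13RA2 not among them, and cover the 250 bases before the RefSeq start; GENCODE lists transcripts of each of the 3 genes that start inside or before these windows. Capitals mark GGGCGG on either strand, the GC box bound by SP1-type factors, in the sequences of IL13RA1 and IL4R, and CCGGAAG, a core motif of ETS factors, in that of IL2RG. IL13RA1 lies at chrX:118727356-118727605 (plus strand), IL4R at chr16:27313724-27313973 (plus strand) and IL2RG at chrX:71111578-71111827 (minus strand).
IL13RA1: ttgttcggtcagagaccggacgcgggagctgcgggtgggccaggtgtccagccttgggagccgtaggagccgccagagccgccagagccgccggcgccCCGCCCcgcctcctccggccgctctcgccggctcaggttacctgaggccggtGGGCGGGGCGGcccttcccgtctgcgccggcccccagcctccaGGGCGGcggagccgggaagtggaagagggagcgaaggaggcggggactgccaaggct
IL4R: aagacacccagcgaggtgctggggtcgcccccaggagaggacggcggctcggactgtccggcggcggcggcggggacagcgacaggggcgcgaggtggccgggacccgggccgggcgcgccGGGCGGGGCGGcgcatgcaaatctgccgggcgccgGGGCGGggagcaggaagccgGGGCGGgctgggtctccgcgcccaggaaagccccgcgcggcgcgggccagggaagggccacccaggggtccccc
IL2RG: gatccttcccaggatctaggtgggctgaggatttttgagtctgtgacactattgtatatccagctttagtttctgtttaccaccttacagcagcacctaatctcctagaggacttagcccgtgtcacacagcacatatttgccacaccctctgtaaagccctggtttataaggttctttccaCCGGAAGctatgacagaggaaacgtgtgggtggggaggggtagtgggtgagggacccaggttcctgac

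The IL13RA1 and IL4R windows were alike in base composition, at 75.6% and 80.8% GC with 28 and 35 CpG dinucleotides. The median of the 35114 RefSeq windows of this length was 58.0% GC and 11 CpG. IL2RG held 50.0% GC and 3 CpG, and 22.9% of the windows held fewer CpG. GGGCGG occurred 4 times in the IL13RA1 window, 4 times in that of IL4R (overlapping matches counted) and not in that of IL2RG, and 42.6% of all windows held at least 1. CCGGAAG occurred once, in IL2RG, and in 8.52% of all windows. The STAT motif TTCNNNGAA, its form with 4 bases between the half-sites and the AP-1 motif TGANTCA, read on both strands, did not occur in any of the 3 windows, and 6.57%, 5.38% and 6.57% of all windows held them. GGGCGG and CCGGAAG were chosen after the sequences had been seen, and a match describes letters, not binding.

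Of the 4 chains, 3 lie on chromosome X, a position that played no part in their choice. IL13RA2 and IL13RA1 are 3.71 Mb apart on its long arm, and IL2RG lies 43.9 Mb from IL13RA2. Genes of chromosome X were mostly higher in HCC827_Er: of 270 tested, 234 had a positive log2(FPKM + 1) difference, 107 were called higher (39.6%) and 20 lower (7.41%). On the other chromosomes 24.1% of the tested genes were called higher and 20.3% lower. With median-ratio rescaling the X calls were 54 and 30, with equal sums 159 and 16, and 234 genes kept a positive sign with both.

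IL13RA1 had the sign of the genes around it. Of the 5 nearest listed genes on each side, 8 were tested and all 8 were higher in HCC827_Er as deposited and with both rescalings, with log2 differences from 0.58 to 1.38 and a median of 0.81, the value of IL13RA1 itself. Among them PGRMC1, a progesterone receptor membrane component, stood at 48.7 and 78.2 FPKM, and SLC25A5, a mitochondrial ADP/ATP carrier, at 296 and 573 FPKM. Over the 270 tested genes of chromosome X the median was 0.86, so the value was not particular to this neighbourhood. DANT1, DANT2 and SLC6A14 are also counted as neighbours of IL13RA2. The part of chromosome X in the difference of IL13RA1 was not tested.

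IL13RA2 and IL2RG had the opposite sign to most genes around them. Of the 6 tested neighbours of IL13RA2, 5 were higher in HCC827_Er. On the side of higher coordinates the nearest was LRCH2, at 0.260 ± 0.0458 and 1.15 ± 0.0850 FPKM, followed by PLS3, which encodes the actin-bundling plastin 3 and rose from 85.5 ± 4.58 to 188 ± 14.03 FPKM, and by the noncoding gene DANT2, at 3.22 and 7.38 FPKM. DANT1 and SLC6A14 stood under the minimum there, with means of at most 0.837 FPKM. On the other side AMOT, which encodes angiomotin, rose from 0.897 ± 0.227 to 7.497 ± 0.380 FPKM and ALG13 stood at 35.9 and 53.7 FPKM. CAPN6, a calpain-family gene 3733 kb away, fell from 6.92 ± 0.226 FPKM to 0, 0.02 and 0 FPKM in the 3 HCC827_Er libraries. DCX and PAK3 stood under the minimum, with means of at most 0.990 FPKM in either line. The nearest listed genes were LRCH2, 90.6 kb away, and on the other side AMOT, 2163 kb away. Both were detected in the line in which IL13RA2 was listed at 0. Whether the stretch between them differs between the lines was not tested. Of the 10 tested neighbours of IL2RG 9 were higher in HCC827_Er, among them FOXO4, a transcription factor gene 3.87 kb away, at 2.98 and 6.16 FPKM. The exception was GJB1, which encodes connexin 32 and fell from 12.8 ± 0.334 to 2.16 ± 0.644 FPKM. IL4R, on chromosome 16, was higher where 87 of the 268 tested genes of its chromosome (32.5%) had a positive difference, and 4 of its 5 tested neighbours were higher.

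**Figure D3:**
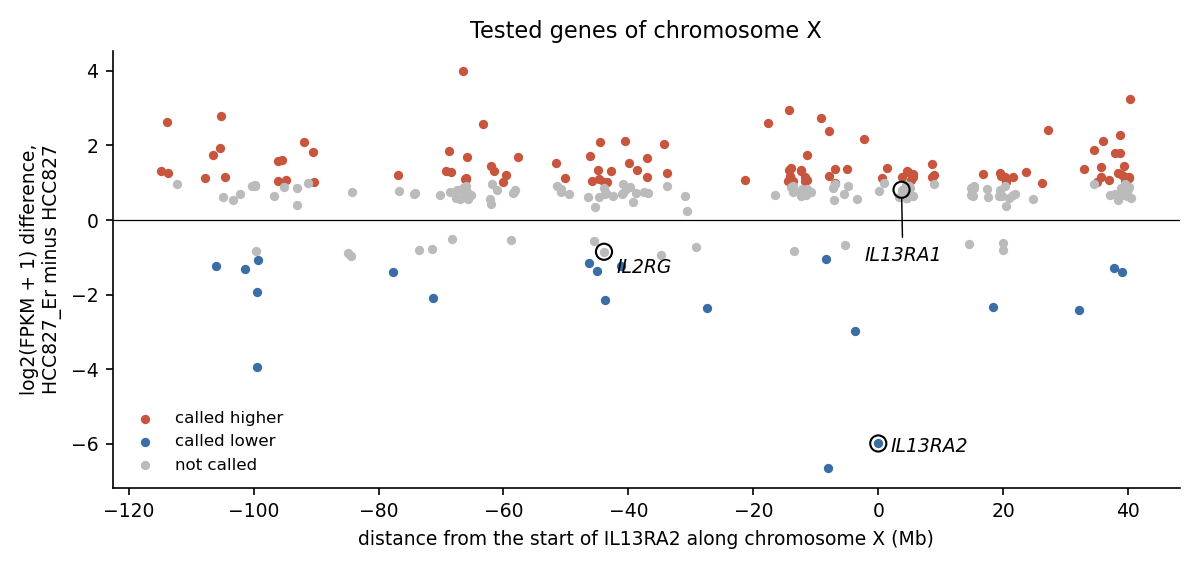
Difference of log2(FPKM + 1), HCC827_Er minus HCC827, of the 270 tested genes of chromosome X against their distance in Mb from the start of IL13RA2, coloured by call; the 3 receptor chains are circled. Most genes lie above 0, IL13RA1 (0.81) among them, while IL13RA2 (-5.99) and IL2RG (-0.85) lie below.

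By profile over the 6 libraries, the tested genes closest to IL13RA2 were LBP, GSTA2 and VCAM1, with root mean square differences of 0.13, 0.14 and 0.19 between centred log2(FPKM + 1) values. Closest to IL13RA1 were TSTD1, ORC2 and MAP3K8, at 0.024 to 0.035. Closest to IL4R were ANKFY1, NHSL1 and PLAUR, at 0.025 to 0.054, and closest to IL2RG were PARVB, TMEM42 and NECTIN2, at 0.082 to 0.093. None of the 12 lies on chromosome X. With 2 lines of 3 libraries this likeness rests mostly on the size of the difference.

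Of the other genes of the pathway, 8 lists held 139 names, of which 54 were in the table and 45 were tested. Of these, 13 were called higher and 6 lower in HCC827_Er (42.2%, beside 44.4% of all tested genes). Counts of single lists below stand beside 24.7% of all tested genes called higher and 19.7% called lower. The ligands interleukin-4 and interleukin-13 and the epithelial cytokines TSLP, IL33 and IL25 were not analysed here, nor were STAT6, TYK2 and JAK2. Of the chains that pair with IL2RG in other receptors, IL2RA and IL2RB were in the table and stood at 1.5 FPKM or less in every library.

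JAK1, the kinase of IL4R, fell while IL4R was higher. Its level was 213 ± 6.11 FPKM in HCC827 against 104 ± 4.74 FPKM in the HCC827_Er libraries (log2(FPKM + 1) difference of -1.03 with an SE of 0.053, limma adjusted p = 2.37e-07), just past the 2-fold minimum, and was not called with equal sums or without HCC827_Er replicate 1. JAK3, the kinase of IL2RG, stood at 1.38 ± 0.433 and 2.69 ± 0.589 FPKM and was not called. STAT4, which interleukin-12 receptors activate, rose from 0.340 ± 0.164 to 3.42 ± 0.543 FPKM (not called with a pseudocount of 5). These were 1 of 5 tested kinases and STATs called higher and 1 called lower (rescaled by medians 1 and 2, with equal sums 1 and 0). STAT3 and STAT5A, which other cytokine receptors also use, were lower by less than 2-fold.

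Of the adaptors that IL4R recruits, 1 of 5 tested was called: PIK3R3, a regulatory subunit of phosphoinositide 3-kinase, rose from 1.76 ± 0.485 to 16.7 ± 0.339 FPKM. IRS2, the main insulin receptor substrate of interleukin-4 signalling in many cells, stood at 2.65 ± 0.197 and 1.497 ± 0.186 FPKM and was not called. Of 9 tested inhibitors of JAK-STAT signalling, SOCS7 fell from 47.9 ± 0.351 to 11.1 ± 1.27 FPKM and no other was called (rescaled by medians 0 higher and 2 lower, with equal sums 2 and 1). In number the calls were 3 with a pseudocount of 0.1 and 2 without HCC827_Er replicate 2. SOCS1, which inhibits Janus kinases of this receptor, had means of 2.69 ± 0.379 and 1.54 ± 0.497 FPKM, a difference of less than 2-fold.

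The list of reported partners and outputs of IL13RA2 had 4 tested genes, 1 called higher and 2 lower (rescaled by medians 1 and 3, with equal sums 1 and 2). Of all tested genes 24.7% were called higher and 19.7% lower. CHI3L1, a chitinase-like ligand of IL13RA2, rose from 0.0633 ± 0.0252 to 1.76 ± 0.440 FPKM (not called with a pseudocount of 5). The AP-1 subunit gene JUN fell from 181 ± 14.1 to 61.3 ± 1.02 FPKM. JUND, for another AP-1 subunit, fell from 81.9 ± 12.5 to 29.8 ± 8.39 FPKM. FOSL2, a further subunit, stood at 57.9 ± 2.02 and 31.7 ± 0.168 FPKM.

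Genes known to respond to interleukin-4 and interleukin-13 in airway epithelium moved both ways, with 5 of 10 tested called higher and 2 lower. Rescaled by medians these counts were 5 and 3, with equal sums 5 and 2, and with a pseudocount of 5 they were 3 and 2. Of all tested genes 24.7% were called higher and 19.7% lower. Some genes called higher, AGR2 and SPDEF among them, lay under 1 FPKM in every HCC827 library and were tested only through HCC827_Er. AGR2, a disulphide isomerase of mucous cells, rose from 0.177 ± 0.204 to 107 ± 9.004 FPKM, CHIA, an acidic chitinase, from 1.52 ± 0.0603 to 36.1 ± 0.858 FPKM and SPDEF, the regulator of goblet cells, from 0.0800 ± 0.0721 to 3.74 ± 0.122 FPKM. SERPINB4 fell from 93.9 ± 4.02 to 13.8 ± 0.875 FPKM and its near-identical copy SERPINB3 from 29.1 ± 1.64 to 7.47 ± 0.638 FPKM; reads of this pair can be shared. MUC5AC, the mucin of goblet cells, stood under the minimum. It was at 0.01, 0.02 and 0 FPKM in the HCC827 libraries against 0.44, 0.36 and 0.34 FPKM in those of HCC827_Er.

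Beside 24.7% called higher and 19.7% lower among all tested genes, 5 of 12 tested other cytokine receptor chains were called higher and none lower. Rescaled by medians these counts were 3 and 2, with equal sums 5 and 0. With pseudocounts of 0.1 and 5 the calls were 9 and 2 in number. CRLF2, a relative of IL2RG that forms the receptor of TSLP with IL7R, went the opposite way to IL2RG, from 0.163 ± 0.0862 to 6.23 ± 0.932 FPKM (log2 difference 2.63, SE 0.13, limma adjusted p = 2.05e-07). Like IL2RG, it lies on chromosome X, where most tested genes were higher in HCC827_Er. CRLF2 lay under 1 FPKM in every HCC827 library, so it was tested only through HCC827_Er. The erythropoietin receptor gene EPOR rose from 2.91 ± 0.301 to 13.0 ± 0.571 FPKM, EBI3, a subunit of interleukin-27, from 2.69 ± 0.450 to 10.2 ± 0.632 FPKM, and IL27RA, its receptor, from 5.40 ± 0.575 to 14.5 ± 0.380 FPKM.

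**Figure D4:**
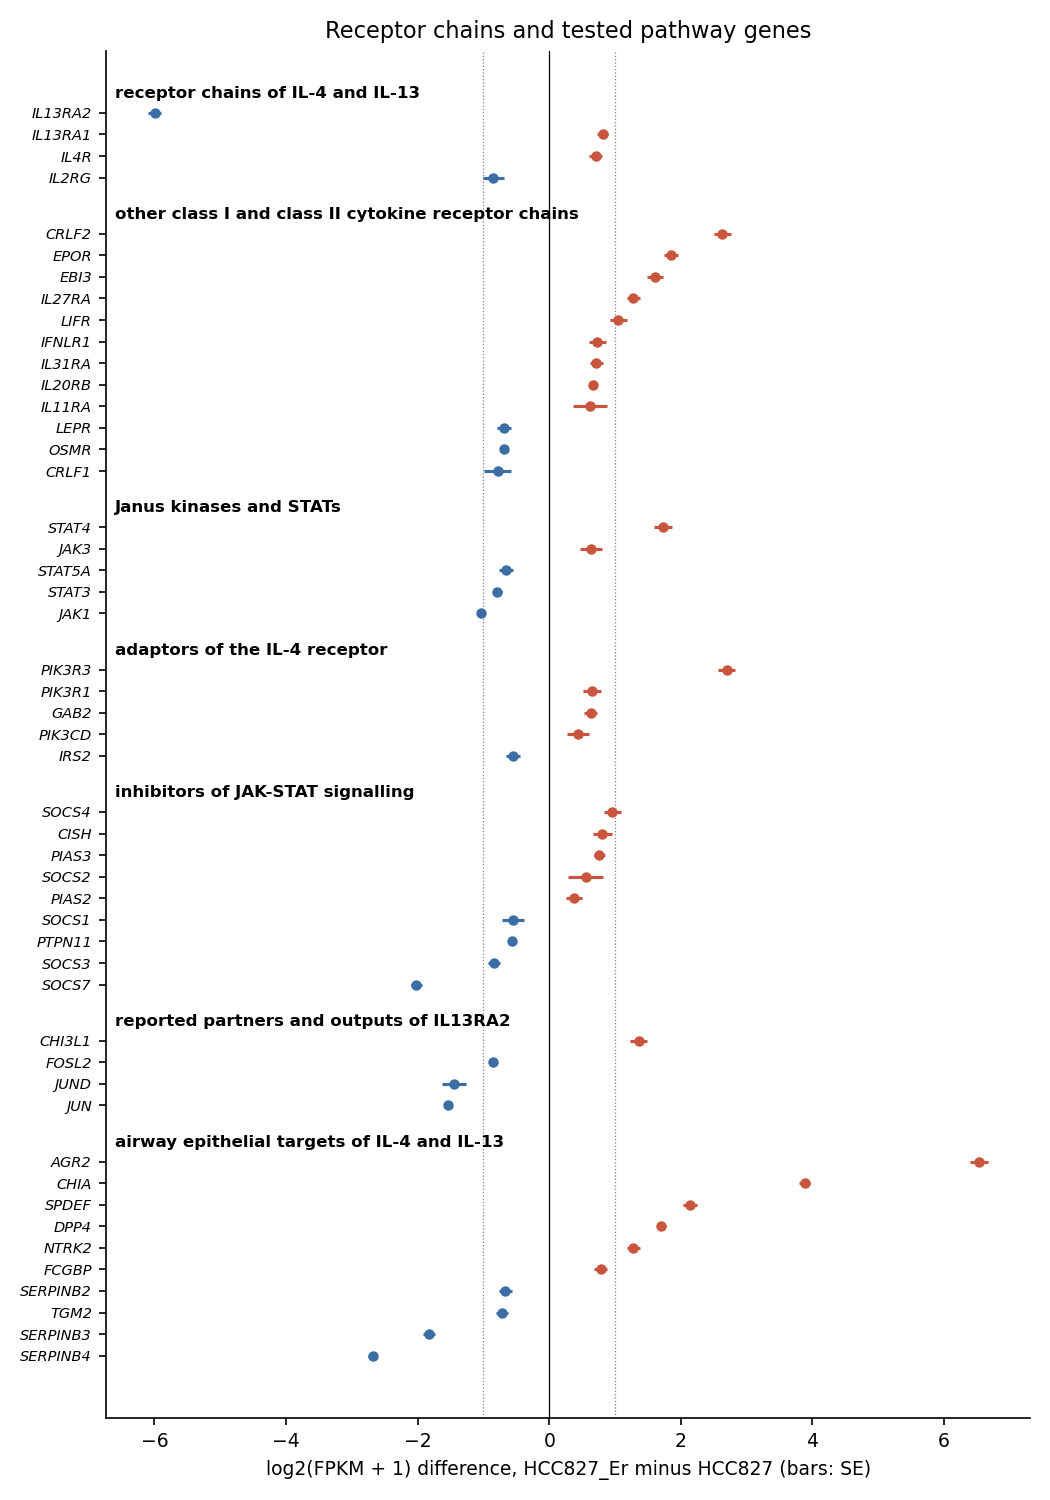
Difference of log2(FPKM + 1), HCC827_Er minus HCC827, of the 4 receptor chains and of the tested genes of 6 pathway lists, with SE bars; dotted lines mark the 2-fold minimum. IL13RA2 (-5.99) lies farther below 0 than any pathway gene shown, while IL13RA1 (0.81), IL4R (0.70) and IL2RG (-0.85) lie within the dotted lines.

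IL2RG is chiefly a gene of lymphocytes, so leukocyte markers were read beside it. Of 22 markers 6 were in the table, CSF1R, CORO1A, ITGB2, LAPTM5, CD14 and CD68, with no T or B cell gene of the list among them. They thus give no reading of lymphocytes. All 6 were tested and 5 were called higher in HCC827_Er (2 with a pseudocount of 5), beside 24.7% of all tested genes. CSF1R, CORO1A, LAPTM5 and CD14 lay under 1 FPKM in every HCC827 library. These markers reached the minimum only through HCC827_Er, which fixed their direction. IL2RG was lower in that line. CSF1R rose from 0.230 ± 0.227 to 5.45 ± 1.71 FPKM, CORO1A from 0.703 ± 0.189 to 7.66 ± 0.966 FPKM, ITGB2 from 3.33 ± 1.08 to 13.7 ± 1.66 FPKM and LAPTM5 from 0.903 ± 0.0611 to 4.49 ± 0.370 FPKM. The 6 markers summed to between 175 and 182 FPKM in HCC827 and between 146 and 158 FPKM in HCC827_Er, most of it CD68, the marker that was not called, at 174 ± 3.10 and 117 ± 4.36 FPKM, and none of them was listed at 0 in every library. The leukocyte gene PTPRC and the T cell gene CD3E were not analysed here. Fibroblast and endothelial markers had 3 tested members, which differed in direction and had a median log2(FPKM + 1) difference of -0.40. COL1A1 rose from 0.750 ± 0.243 to 10.1 ± 0.932 FPKM, while LUM, at 1.81 ± 0.661 and 0.530 ± 0.372 FPKM, and EGFL7, at 9.07 ± 0.551 and 6.61 ± 0.386 FPKM, were lower in HCC827_Er and not called. This count of 1 became 2 with a pseudocount of 0.1, with median-ratio rescaling, without HCC827 replicate 3 and without HCC827_Er replicate 1. Below the minimum, COL3A1 was listed at 0 in every HCC827_Er library and CDH5 in every HCC827 library. The part of these markers in the levels of the 4 chains was not tested. Both groups are cell lines, in whose libraries fewer cells with a transcript cannot be told apart from less of it per cell.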

How the data were processed

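RNA-seq of 3 HCC827 and 3 HCC827_Er libraries was analysed, grouped by their titles. The authors deposited FPKM per gene and library under Ensembl identifiers. Per the submitters' processing notes the tools were fastp, HISAT2 and StringTie and the builds GRCh38.p14 and hg19, with no roles stated. Not given in the sources used here were tool versions, the annotation and how the table's genes were selected. Because FPKM is relative to the library, a few very abundant genes lower all others, and the table shows no depth. An exact 0 can be a failed estimate.

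Symbols were matched for 6636 of 6641 genes and GENCODE 29 positions for 6353. log2(FPKM + 1) values of the 5276 genes with FPKM of at least 1 in 3 libraries were fitted with limma 3.58.1 in R 4.3.3 (mean-variance trend, line as the only term), with Benjamini-Hochberg adjustment over all of them; the steps were tested on simulated data. With 3 libraries a line, no two-sided exact p can be smaller than 0.1, so none was computed. The replicate numbers of the titles do not pair the libraries.

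The chains and gene lists were chosen with earlier results of these data known. From each of 11 lists up to 4 called genes with the largest differences were named, and the 5 listed genes on each side of IL13RA2. LIFR and other called genes beyond these are counted only. JAK3, STAT3, STAT5A, IRS2, SOCS1, FOSL2, SERPINB3, MUC5AC, IL2RA, IL2RB, CD68, KRT8, LUM, EGFL7, COL3A1, CDH5, PGRMC1, SLC25A5, FOXO4 and GJB1 were named after their values were seen. Alternatives were pseudocounts, no minimum, 2 rescalings, no trend, the replicate block and each library left out.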

Additional observations from a re-analysis of the deposited data

How the results depend on the processing

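The sign of the difference of all 4 chains held in each of the 40 alternative values computed, with pseudocounts of 0.1 and 5, both rescalings and each library left out. Because the lines did not overlap for any chain, a pseudocount or a left-out library could not have turned a sign. A rescaling could not have done so for IL13RA2, listed at 0 in HCC827_Er. For the other chains only a rescaling could have. IL13RA2 stood at -9.29, -3.76, -6.16 and -5.87 with a pseudocount of 0.1, of 5, median-ratio rescaling and equal sums. With the rescalings IL13RA1 stood at 0.48 and 1.05 and IL4R at 0.37 and 0.95. IL2RG stood at -1.28 and -0.35 with the pseudocounts, -1.07 and -0.69 with the rescalings, and between -0.98 and -0.67 with a library left out. The rescalings change these values by construction, through the shift of all genes; the pseudocount does so through low values.

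With a pseudocount of 5, 1085 genes were called in place of 2345, 579 higher and 506 lower, and 12 pathway genes in place of 19. As deposited 1304 were higher and 1041 lower, with median-ratio rescaling 902 and 1671, and with equal sums 1825 and 794. Of 117 counts of single lists under an alternative, 14 moved by over 1.5 times, all of them counts of 9 or fewer. The replicate number as a block left 2345 genes called, all 2345 in the same direction. Deviations of same-numbered libraries correlated with r of 0.11, -0.022 and 0.049, so the numbers were not taken as a pairing. The unknown depth limits what a value of 0 or a low FPKM of IL2RG can show.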

Other observations

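IL13RA2 was 1 of 185 listed genes at 0 in all 3 HCC827_Er libraries, and of these only 6 had a mean of at least 10 FPKM in HCC827. By that mean it ranked 3, after the glutathione transferase gene GSTA1 (95.9 ± 3.71 FPKM, SD, n = 3) and VCAM1, a vascular adhesion molecule (81.4 ± 3.82 FPKM). The other 3 were GSTA2 (51.4 ± 3.04 FPKM), TENM3, a teneurin of cell contacts (21.6 ± 1.39 FPKM), and CABP1, a calcium-binding protein (11.3 ± 1.49 FPKM). GSTA1 and GSTA2 are near-identical copies, and reads of the pair can be shared. In the other direction 193 listed genes were at 0 in all 3 HCC827 libraries, and 3 of them had a mean of at least 10 FPKM in HCC827_Er. Among the 20 genes of chromosome X called lower, IL13RA2 had the second largest difference. These genes were named after their values were seen, and no test was made of them as a set.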
